A study of Homo sapiens with 2 samples.

Results

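The S-phase DNA replication genes described here are 48 genes that build, regulate or supply the machinery copying DNA. They were chosen by name for their function and not for their values, though earlier results of these data were known. All 48 were found, each on 1 row, among the 18781 genes of the deposited table. The study asked which RNAs associate with IMP1, an RNA-binding protein, in T47D cells, an established line of luminal breast cancer cells. Wild-type T47D cells were lysed, and the lysate was put on protein A beads carrying either an antibody against IMP1 or normal IgG. RNA left on the washed beads was sequenced, an assay called RIP-seq (RNA immunoprecipitation followed by sequencing). There were 2 libraries, 1 from the IMP1 antibody and 1 from the IgG control, so that no difference given here has a replicate check and no test between them was run.

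Before S phase, the origin recognition complex together with CDC6 and CDT1 loads the MCM helicase onto DNA, and geminin (GMNN) blocks further loading. CDC45 and the GINS complex then join the helicase, primase and polymerase alpha start each new strand, and polymerases delta and epsilon extend it. PCNA is the sliding clamp that holds them on DNA, replication factor C (RFC) loads the clamp, and RPA coats single-stranded DNA. Many of these genes are transcribed at the border of G1 and S phase under E2F transcription factors, and their mRNAs are typical of proliferating cells such as T47D.

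Values are FPKM (fragments per transcript length and library size), so that levels of different genes can be compared within a library. The 2 libraries were compared as the log2 ratio of FPKM + 0.1 with the IMP1 antibody over FPKM + 0.1 with IgG, which understates the change of low genes. A gene was counted as higher or lower past 2-fold on this scale. The depth of both libraries is unknown, and 7270 genes were listed at 0 with IgG against 1202 with the IMP1 antibody. Luminal markers were present in both libraries. ESR1 had 9.60 FPKM with the IMP1 antibody and 9.04 FPKM with IgG, and GATA3 had 53.7 and 21.6 FPKM, while TFF1 had 0.869 FPKM with the IMP1 antibody and was listed at 0 with IgG.

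The members were first read against promoter sequence. Many of them are known to be under E2F factors, as said above. A high share with an E2F site can therefore follow from choosing the list by function. RefSeq promoters of GRCh38.p14, each running from 250 bases before to 50 bases after a gene's start, were matched to 41 of the 48 genes by symbol. CCNE2, GINS4, MCM4, MCM5, POLD3, RPA2 and RPA3 were not matched. The core of the E2F site, TTTCGCGC or TTTGGCGC on either strand, was present in 13 of the 41 genes, and in 2.30% of the 10925 genes of the table with a promoter. Over all 35116 promoters the share was 1.15%. The CCAAT box, searched as CCAAT on either strand, was found in 25 of the 41 members and in 42.8% of the genes of the table with a promoter. These matches describe letters within the window and are not measured sites. The windows below show the E2F core in capitals for genes whose values are described further on, 3 of them very low or listed at 0 with IgG (MCM2, MCM3, MCM6), 1 near equal in both libraries (MCM7) and 2 with more deposited FPKM with IgG (CDC6, POLE2), together with E2F1 itself, and each is given on the strand of its gene.
MCM2, chr3:127598402-127598431, plus strand: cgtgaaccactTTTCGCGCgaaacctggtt
MCM3, chr6:52284728-52284757, minus strand: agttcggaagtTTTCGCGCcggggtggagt
MCM6, chr2:135876573-135876602, minus strand: ctttgcatttgGCGCGAAAtccctttccgt
MCM7, chr7:100101388-100101417, minus strand: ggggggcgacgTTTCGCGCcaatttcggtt
CDC6, chr17:40287875-40287904, plus strand: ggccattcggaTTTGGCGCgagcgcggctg
POLE2, chr14:49688201-49688230, minus strand: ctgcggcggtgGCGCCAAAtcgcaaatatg
E2F1, chr20:33686387-33686416, minus strand: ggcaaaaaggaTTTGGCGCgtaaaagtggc

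In MCM6 and POLE2 the core reads as its reverse complement, and in MCM2 and MCM6 the core overlaps a match on the other strand. The 13 genes with an E2F core were CDC6, E2F1, GINS1, GMNN, MCM2, MCM3, MCM6, MCM7, POLA1, POLA2, POLE, POLE2 and UHRF1. Of these 13, 8 were at least 2-fold higher with the IMP1 antibody and 3 at least 2-fold lower, with a median log2 ratio of 1.63, and of the 28 matched members without the core 10 were higher and 8 lower, with a median of 0.48. Over all genes 39.9% were higher and 29.9% lower, with a median of 0.40, and no test separates the members with the core from those without it.

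Every replication gene was detected in the IMP1 precipitate, from 0.324 FPKM for CCNE1 to 41.0 FPKM for PCNA. With IgG, 34 of the 48 genes were above 0, reaching 56.5 FPKM for POLD2, and 14 were listed at 0. Summed over the 48 genes the level was 339 FPKM with the IMP1 antibody and 401 FPKM with IgG. As a share of all FPKM in a library, the same genes made up 0.0958% with the IMP1 antibody and 0.0309% with IgG, so that the order of the sums depends on the scale. These shares depend on very high genes. The highest had 395449 FPKM in a sum of 1.3e+06 FPKM with IgG, and 97004 FPKM in a sum of 353885 FPKM with the IMP1 antibody. The median gene had 1.13 FPKM with the IMP1 antibody, and 44 of the members lay above it. With IgG the median gene had 0.618 FPKM, and 31 members lay above it.

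**Figure D1:**
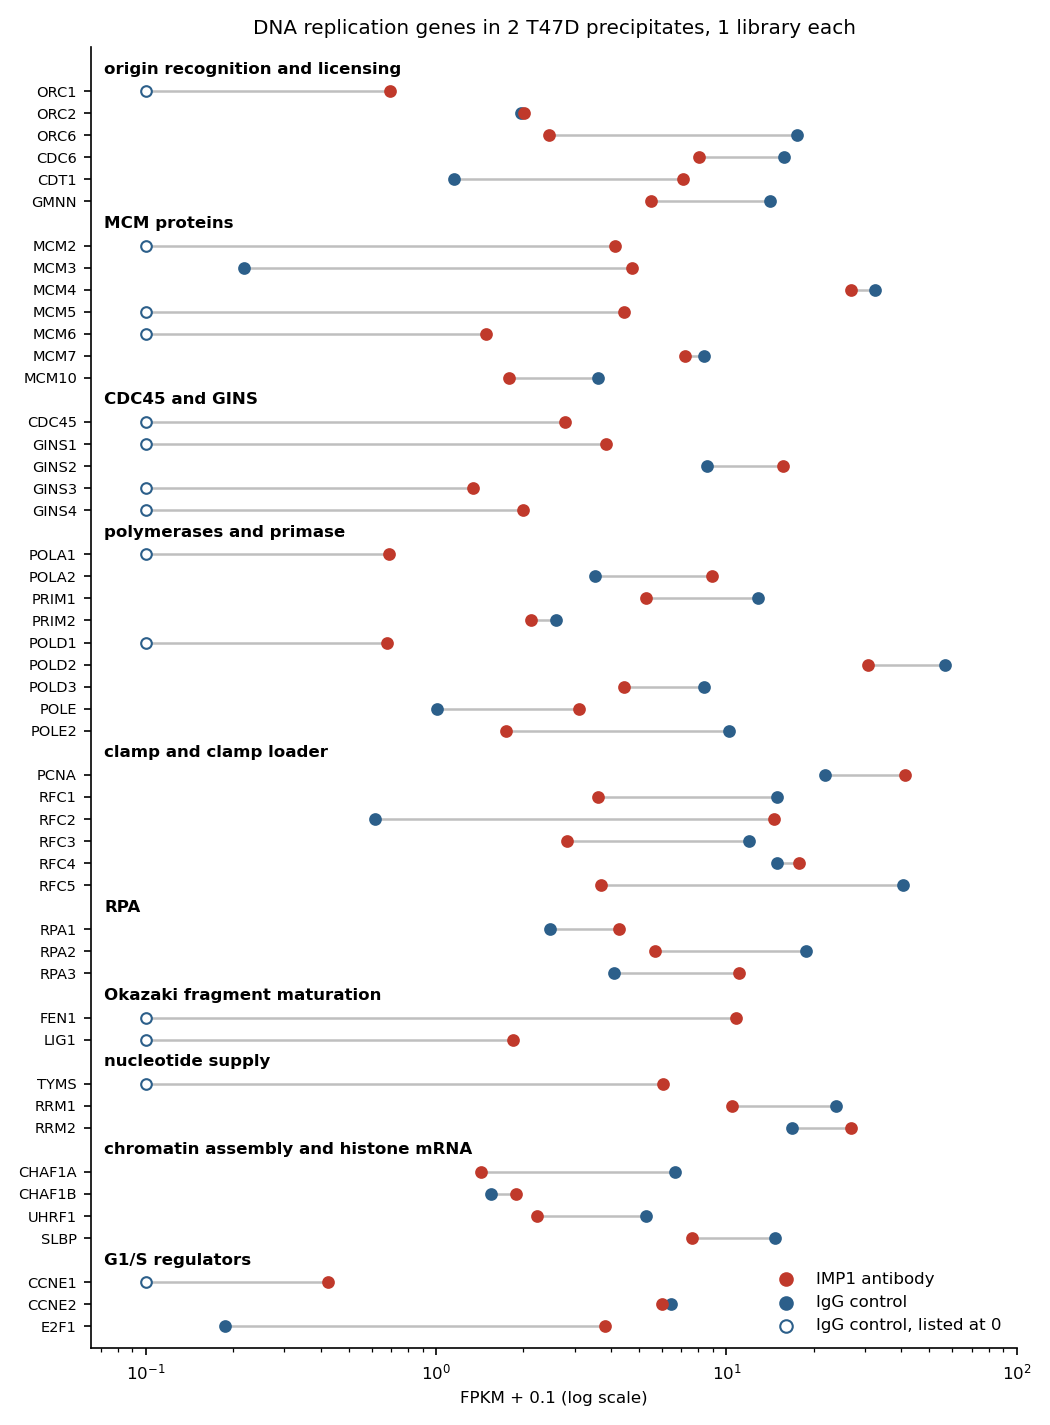
FPKM + 0.1 on a log axis for each of the 48 replication genes, grouped by role, with the IMP1 antibody (red) and with IgG (blue), 1 library each. Open blue circles mark the 14 genes listed at 0 with IgG, while no gene was listed at 0 with the IMP1 antibody.

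By the ratio of FPKM + 0.1, 21 of the 48 genes (43.8%) were at least 2-fold higher with the IMP1 antibody, against 39.9% of all genes. At least 2-fold lower were 12 genes (25%), against 29.9% of all genes. At this pseudocount and threshold both shares lie near the background and are not a result about replication genes. With a pseudocount of 1, 17 of the 48 were higher and 10 lower, against 17.4% and 22.4% of all genes. Past 4-fold, 18 were higher and 6 lower, against 26.1% and 17.3% of all genes. With a pseudocount of 0.01, 21 (43.8%) were higher and 12 (25%) lower, against 47.4% and 31.1% of all genes. The distance of the members from the background thus moved with these choices, to either side of it for the higher genes, and no test was run on it. The median log2 ratio was 0.73 over the members and 0.40 over all genes, and the interquartile range of the members ran from -0.98 to 3.78, against -1.37 to 2.09 for all genes. Of the 30 members that reached 1 FPKM in each library, 3 (10%) were at least 2-fold higher and 12 (40%) at least 2-fold lower. The shares over the 6909 genes of the table at these levels were 11.5% and 44%. The median log2 ratio was then -0.90 for the members and -0.78 for all such genes, so that the sign of the members' median turned with this filter as that of all genes did.

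**Figure D2:**
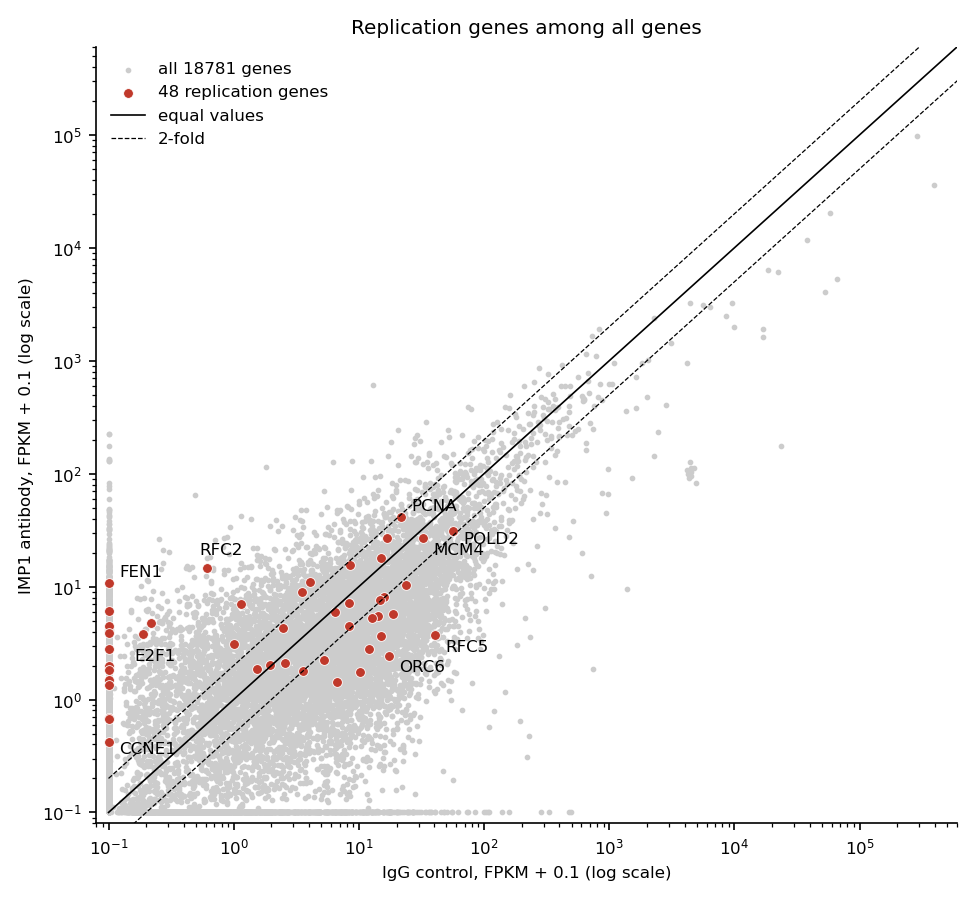
FPKM + 0.1 with IgG (x axis) and with the IMP1 antibody (y axis) on log axes for all 18781 genes (grey) and the 48 replication genes (red). The solid line marks equal values and the dashed lines 2-fold. The red points lie on both sides of the solid line within the spread of the grey points, and 14 of them are on the left edge, listed at 0 with IgG.

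The 14 genes listed at 0 with IgG came from 7 of the 10 roles, all but the clamp and its loader, RPA and chromatin assembly. Whether their mRNA was absent from the IgG beads or was present and not sampled was not tested. Of all genes 38.7% were listed at 0 with IgG, and so were 31% of the 12573 genes whose IMP1 antibody value lay in the members' range, against 29.2% of the members. With the IMP1 antibody 6.4% of all genes were listed at 0, against 0 of the members. The share among the members was therefore close to that of all genes in this range. The genes were not matched for level, with a median IMP1 antibody value of 2.27 FPKM against 4.10 FPKM for the members.

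Among the origin licensing genes, ORC6, a small subunit of the origin recognition complex, had 2.34 FPKM with the IMP1 antibody and 17.4 FPKM with IgG (log2 ratio -2.84). ORC2, another subunit, had 1.91 and 1.87 FPKM. ORC1, the largest subunit, had 0.592 FPKM with the IMP1 antibody and was listed at 0 with IgG. The subunits of this complex thus did not stand in the same proportion in both precipitates, with ORC6 over ORC2 at 1.22 with the IMP1 antibody and 9.29 with IgG. CDT1, the loading factor that geminin inhibits, had 6.96 FPKM with the IMP1 antibody and 1.05 FPKM with IgG (log2 ratio 2.62), while geminin had 5.40 and 14.0 FPKM, a log2 ratio of -1.36. CDT1 over GMNN was 1.29 with the IMP1 antibody and 0.0749 with IgG, a comparison within each library that no rescaling of a library can move. CDC6, an ATPase that brings the helicase to origins, had 7.96 and 15.7 FPKM, a log2 ratio of -0.97.

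The 6 subunits of the MCM2 to MCM7 helicase ring, which are used in equal number in the protein complex, fell into separate sets. MCM4 had 26.8 FPKM with the IMP1 antibody and 32.5 FPKM with IgG, and MCM7 had 7.08 and 8.24 FPKM. These log2 ratios, -0.28 for MCM4 and -0.22 for MCM7, were within 2-fold, and both turned positive under each rescaling tried and by percentile rank. In contrast, MCM3 had 4.62 FPKM with the IMP1 antibody and 0.118 FPKM with IgG (log2 ratio 4.43). With pseudocounts of 1 and 0.01 this log2 ratio was 2.33 and 5.17. MCM2 (4.02 FPKM), MCM5 (4.34 FPKM) and MCM6 (1.39 FPKM) were listed at 0 with IgG. MCM4 was 5.80 times MCM3 with the IMP1 antibody and 275 times MCM3 with IgG, whereas MCM4 over MCM7 was 3.79 and 3.94. MCM10, an initiation factor outside the ring, had 1.69 and 3.50 FPKM, a log2 ratio of -1.01. In the deposited table, whose positions are in hg19, MCM4 lies on chromosome 8 from 48872745 to 48890720. MCM3 lies on chromosome 6 from 52128807 to 52149679 and MCM5 on chromosome 22 from 35796056 to 35821423. No other gene is listed at these loci, whereas MCM2 shares its locus with TPRA1 (3.84 and 3.96 FPKM). MCM7 shares its locus with TAF6, CNPY4, MBLAC1 and AP4M1.

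CDC45, which completes the active helicase, had 2.68 FPKM with the IMP1 antibody and was listed at 0 with IgG. The GINS complex, its partner, showed a similar split between subunits. GINS2 had 15.5 FPKM with the IMP1 antibody and 8.46 FPKM with IgG (log2 ratio 0.87), and was the only one of its 4 subunits above 0 with IgG. GINS1 (3.76 FPKM), GINS3 (1.24 FPKM) and GINS4 (1.89 FPKM) were listed at 0 there. In the IMP1 library GINS2 was also the highest of the 4, and whether level bears on detection with IgG was not tested.

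**Figure D3:**
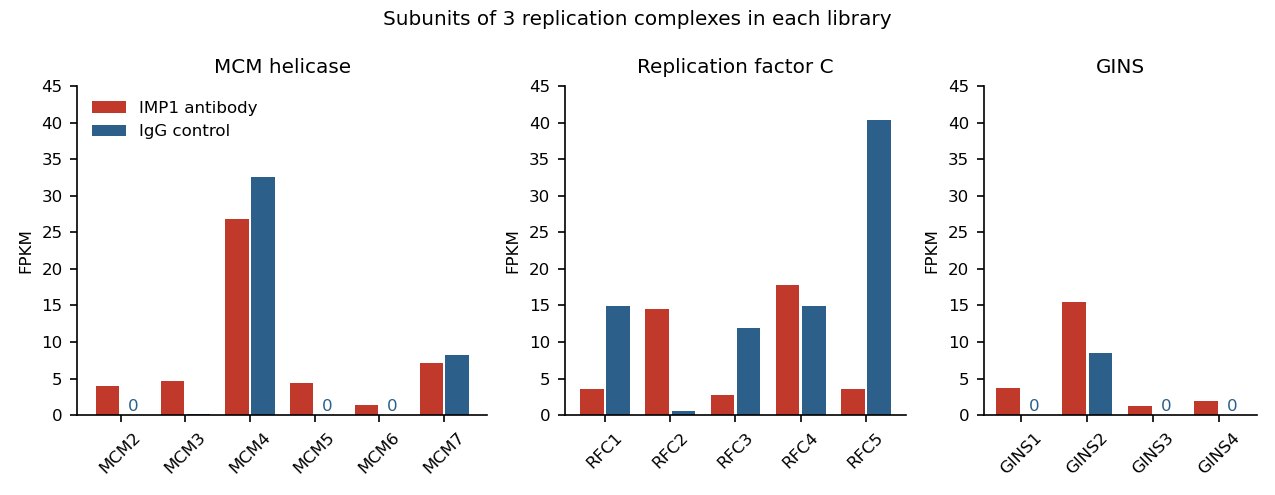
FPKM of the subunits of the MCM helicase, replication factor C and GINS with the IMP1 antibody (red bars) and with IgG (blue bars), 1 library each, on a linear axis from 0. A blue 0 marks a gene listed at 0 with IgG. RFC5 and RFC2 stand in opposite order in the 2 libraries, while MCM4 is the highest MCM subunit in both.

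Replication factor C gave the largest gap in log2 ratio (8.02) among the 16 pairs of genes compared. The pairs were chosen after their values were seen, and some include MCM2, MCM5 or MCM6, listed at 0 with IgG. RFC2 had 14.5 FPKM with the IMP1 antibody and 0.517 FPKM with IgG (log2 ratio 4.57). RFC5 had 3.59 and 40.3 FPKM, a log2 ratio of -3.45, the lowest ratio of the 48 genes. RFC2 was 4.05 times RFC5 with the IMP1 antibody, whereas RFC5 was 78.0 times RFC2 with IgG. This reversal is between genes within a library and does not rest on how the libraries were scaled. RFC1, the large subunit, had 3.52 and 14.9 FPKM, and RFC3 had 2.73 and 11.9 FPKM, with log2 ratios of -2.05 and -2.08. RFC4 had 17.7 and 14.9 FPKM, a log2 ratio of 0.25. PCNA, the clamp itself, had 41.0 FPKM with the IMP1 antibody and 21.8 FPKM with IgG (log2 ratio 0.91), and ranked at percentile 97.2 and 89.9 of all genes in the respective library. In hg19, RFC2 lies on chromosome 7 from 73645829 to 73668774, PCNA on chromosome 20 from 5095599 to 5107272 and RFC5 on chromosome 12 from 118451393 to 118500235, a locus it shares with WSB2 in the deposited table. WSB2 had 14.6 and 19.8 FPKM, a log2 ratio of -0.44.

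The polymerases also differed between subunits of 1 enzyme. For polymerase alpha, the catalytic subunit POLA1 had 0.587 FPKM with the IMP1 antibody and was listed at 0 with IgG, while the accessory subunit POLA2 had 8.82 and 3.43 FPKM, a log2 ratio of 1.34. The primase subunits that act with it had 5.20 and 12.7 FPKM for PRIM1 and 2.02 and 2.49 FPKM for PRIM2, with log2 ratios of -1.27 and -0.29. PRIM1 over POLA2 was therefore 0.589 with the IMP1 antibody and 3.71 with IgG. In polymerase epsilon, the leading-strand enzyme, the catalytic subunit POLE had 3.01 and 0.904 FPKM, a log2 ratio of 1.63, and POLE2 had 1.65 and 10.1 FPKM, a log2 ratio of -2.54. Polymerase delta, which extends the lagging strand, did not show this between POLD2 and POLD3. POLD2 had 30.7 and 56.5 FPKM and POLD3 had 4.34 and 8.25 FPKM, with log2 ratios of -0.88 and -0.91, and POLD2 was 7.06 times POLD3 with the IMP1 antibody and 6.85 times with IgG. The catalytic subunit POLD1 had 0.578 FPKM with the IMP1 antibody and was listed at 0 with IgG.

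RPA, a trimer that binds single-stranded DNA, had subunits on both sides. RPA1, the large subunit, had 4.17 FPKM with the IMP1 antibody and 2.37 FPKM with IgG (log2 ratio 0.79). RPA2 had 5.56 and 18.7 FPKM, a log2 ratio of -1.73, and RPA3 had 11.0 and 4.00 FPKM, a log2 ratio of 1.43. RPA2 over RPA3 was thus 0.507 with the IMP1 antibody and 4.69 with IgG. RPA3 shares its locus with RPA3-AS1, an antisense gene with 2.23 and 44.2 FPKM, and whether reads were counted by strand is not given in the sources used here.

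The enzymes that finish Okazaki fragments, the short pieces of the lagging strand, were both listed at 0 with IgG. FEN1, the flap nuclease, had 10.7 FPKM with the IMP1 antibody, the highest value among the 14 genes, and LIG1, the ligase, had 1.74 FPKM. FEN1 shares its locus with 6 other genes of the table, of which TMEM258 was the most abundant, with 41.6 and 94.3 FPKM. FADS1 had 9.67 and 3.21 FPKM, and FADS2 had 6.55 FPKM with the IMP1 antibody and was listed at 0 with IgG, as FEN1 was. In nucleotide supply, TYMS, which makes thymidylate, had 5.95 FPKM with the IMP1 antibody and was listed at 0 with IgG. The subunits of ribonucleotide reductase were present in both libraries. RRM2, whose level rises in S phase, had 26.7 and 16.7 FPKM, a log2 ratio of 0.67, and RRM1 had 10.3 and 23.7 FPKM, a log2 ratio of -1.19. RRM2 was the more abundant of the pair with the IMP1 antibody and RRM1 with IgG.

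Of the 4 genes of chromatin assembly and histone mRNA, 3 had more FPKM with IgG in the deposited scale, of which UHRF1 and SLBP turned with the same sum of FPKM in both libraries. CHAF1A, the large subunit of the assembly factor CAF-1, had 1.33 FPKM with the IMP1 antibody and 6.53 FPKM with IgG (log2 ratio -2.21), while its partner CHAF1B had 1.78 and 1.45 FPKM, a log2 ratio of 0.28. UHRF1, which helps copy DNA methylation, had 2.13 and 5.18 FPKM, a log2 ratio of -1.25. SLBP, which binds the stem-loop of histone mRNAs, had 7.51 and 14.6 FPKM, a log2 ratio of -0.95. Of the regulators of S phase entry, E2F1 had 3.73 FPKM with the IMP1 antibody and 0.0878 FPKM with IgG (log2 ratio 4.35). With pseudocounts of 1 and 0.01 its log2 ratio was 2.12 and 5.26. Cyclin E1 (CCNE1) had 0.324 FPKM with the IMP1 antibody and was listed at 0 with IgG, whereas cyclin E2 (CCNE2) had 5.91 and 6.35 FPKM, a log2 ratio of -0.10.

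Scale decided part of the directions. Rescaling the IMP1 antibody values by the median ratio of genes reaching 1 FPKM in each library moved the median log2 ratio of all genes by 0.56, and rescaling to the same sum moved it by 1.47. Of the 12 genes at least 2-fold lower, GMNN, MCM10, PRIM1, RPA2, RRM1 and UHRF1 turned higher only with the same sum. ORC6, POLE2, RFC1, RFC3, RFC5 and CHAF1A stayed lower under each rescaling. Of these, ORC6, just past the threshold, and RFC5 (-1.61) were still at least 2-fold lower with the same sum. Of the 21 higher genes, 14 were listed at 0 with IgG, and the other 7 were CDT1, MCM3, POLA2, POLE, RFC2, RPA3 and E2F1. Rescaling raises the IMP1 antibody values and could not turn these. Of the 15 genes within 2-fold, MCM4, MCM7, PRIM2 and CCNE2 changed sign under each rescaling, and CDC6, POLD2, POLD3 and SLBP with the same sum.

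Other genes of DNA replication went both ways too. They were listed by function and not by their values, also with earlier results of these data known. Of 43 further genes on 44 rows, 18 rows (40.9%) were at least 2-fold higher with the IMP1 antibody, against 39.9% of all genes. At least 2-fold lower were 12 rows (27.3%), against 29.9% of all genes, so both shares lie near the background. Listed at 0 with IgG were 10 rows (22.7%), against 38.7% of all genes. These sets were not matched for level, with a median IMP1 antibody value of 2.88 FPKM for the rows and 1.13 FPKM for all genes. Where the median log2 ratio over all genes was 0.40, that of these rows was 0.17. Among those reaching 1 FPKM in each library, the largest log2 ratios were those of TK1, thymidine kinase, with 28.6 and 5.68 FPKM (2.31), POLE3, a subunit of polymerase epsilon, with 16.0 and 5.74 FPKM (1.46), and ASF1B, a histone chaperone, with 5.64 and 2.73 FPKM (1.02). The smallest were those of TOP1, a topoisomerase, with 2.59 and 14.8 FPKM (-2.47), HELLS, a chromatin remodeller, with 3.73 and 19.3 FPKM (-2.34), and DSCC1, part of an alternative clamp loader, with 1.54 and 6.26 FPKM (-1.95). TK1 was the highest of the list with the IMP1 antibody, and DUT, which removes dUTP, was the highest with IgG, at 16.0 and 25.3 FPKM.

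Mitosis is the next phase in which proliferating cells express a distinct set of genes. Of 30 such genes, 10 (33.3%) were at least 2-fold higher and 11 (36.7%) at least 2-fold lower, against 39.9% and 29.9% of all genes. Their median log2 ratio was 0.12, against 0.40 over all genes. Listed at 0 with IgG were 4 of them (13.3%), against 38.7% of all genes. Here too level was not matched, with a median IMP1 antibody value of 7.11 FPKM for the mitotic genes and 1.13 FPKM for all genes. The highest and lowest log2 ratios are given for mitotic genes that reached 1 FPKM in each library. PLK1, a mitotic kinase, had 10.3 and 1.54 FPKM (log2 ratio 2.66), CDK1 had 28.5 and 8.40 FPKM (1.75) and CDC20 had 13.6 and 5.08 FPKM (1.40). At the other end under that limit, NUF2, a kinetochore protein, had 1.85 and 20.9 FPKM (-3.43), TOP2A had 4.13 and 21.6 FPKM (-2.36) and KIF11, a spindle motor, had 1.80 and 9.62 FPKM (-2.36). Of the genes outside that limit, 2 are named after their values were seen. CENPE had 0.632 and 26.9 FPKM (-5.20), the lowest log2 ratio of the 30, and MAD2L1 had 9.84 FPKM with the IMP1 antibody and was listed at 0 with IgG. PTTG1 was the highest mitotic gene with the IMP1 antibody (59.8 and 38.0 FPKM) and BUB3 with IgG (16.1 and 46.2 FPKM). No test separates these lists from the replication genes.

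**Figure D4:**
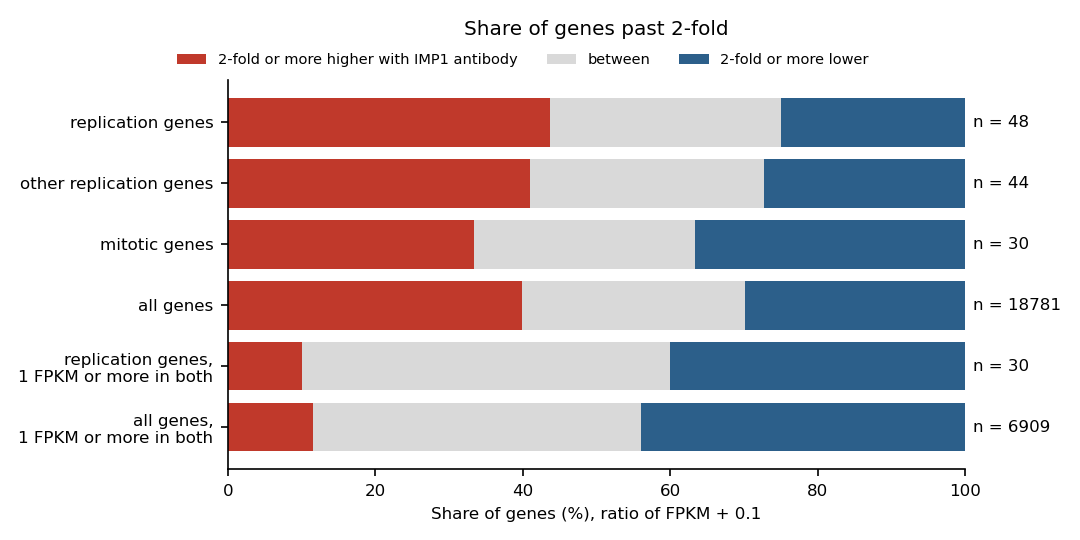
Share of genes (%) at least 2-fold higher (red), within 2-fold (grey) and at least 2-fold lower (blue) with the IMP1 antibody, by the ratio of FPKM + 0.1, for the gene lists and for all genes. Of the replication genes 43.8% were higher and 25% lower, against 39.9% and 29.9% of all genes. Where both libraries reached 1 FPKM these shares were 10% and 40%, against 11.5% and 44%.

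Mesenchymal markers moved with the library. All 12 mesenchymal markers were at least 2-fold lower with the IMP1 antibody in the deposited scale, and 11 of them were still lower with the same sum, ACTA2 being the exception. Their summed level was 3.78 FPKM there and 165 FPKM with IgG, and COL1A2, LUM, DCN, SPARC, ZEB2 and PDGFRB were listed at 0 with the IMP1 antibody. Of 10 blood cell markers 3 were in the table, with a sum of 6.90 FPKM with the IMP1 antibody and 310 FPKM with IgG, nearly all of it CD74 at 305 FPKM. CD74 and CD68 (0.369 and 4.88 FPKM) were at least 2-fold lower with the IMP1 antibody, while CD14 had 0.103 FPKM there and was listed at 0 with IgG. Of the 10 luminal markers 6 were at least 2-fold higher and 0 lower with the IMP1 antibody, with sums of 1209 and 539 FPKM. All 10 were at least 2-fold higher with the same sum, and 7 under each of the other rescalings. The part of these markers in the values of the replication genes was not tested. The labels name T47D as the only cells of both libraries, while collagens, LUM and DCN are typical of connective tissue cells and not of luminal epithelium. Both libraries hold RNA left on beads and not the whole RNA of the cells, and the source of the marker RNA was not tested.

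The deposited locus of 19 members is also that of at least 1 other gene, and reads of overlapping genes may have been divided between them. RFC4 lies at the locus of EIF4A2, which had 67.2 and 286 FPKM, and PRIM1 at that of NACA, with 218 and 460 FPKM. Across the 48 members Spearman's rho of the values in both libraries was 0.53, and across all genes it was 0.56, a description of genes that share the same 2 libraries.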

How the data were processed

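RNA from 1 precipitate of an IMP1 antibody and 1 of control IgG in T47D cells was sequenced. The authors deposited FPKM per gene, in positions of hg19 per the submitters' processing notes, and the aligner, the quantifying software and the annotation are not given in the sources used here. The labels and the study's methods give different lengths of incubation with the antibody. The value 1e-05, which stands for zero, was set to 0. Values above 0 but below 1e-05 FPKM (346 genes with the IMP1 antibody, 228 with IgG) show that whole reads cannot be recovered, so the depth is unknown and no intervals are given. Fold changes, p-values and q-values in the deposited tables are the authors' own comparison and were not used. The start of each locus was counted from 0, and 1 was added.

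Each of the 18781 genes was given a log2 ratio of FPKM + 0.1, and a gene past 2-fold counted as higher or lower. Since each group has 1 library, no test was possible. The members, lists and alternatives were chosen with earlier results of these data known. Every member is named. Of the other replication and mitotic genes, the 3 largest and 3 smallest log2 ratios at 1 FPKM or more in both libraries and the highest gene of each library are named. Lists of luminal, mesenchymal and blood cell markers are given by counts and sums, and the single markers named beside them were chosen after their values were seen. Alternatives were pseudocounts of 1 and 0.01, 3 rescalings, 3 filters on low values, a 4-fold threshold and percentile ranks. Counting was tested on simulated data with 200 of 18781 genes changed 4-fold, and it found 100% of them. The simulation had little noise and no gene at 0 in only 1 library. It therefore checks the counting code and not how reliable the counts are in these data. The software was matplotlib 3.10.9, scipy 1.17.1, Python 3.11.15, pandas 2.3.3 and numpy 2.4.6.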

Additional observations from a re-analysis of the deposited data

How the results depend on the processing

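No paired analysis was possible because there is 1 library per group and no test, and no replicate could be left out for the same reason. The 21 members at least 2-fold higher became 32 with the same sum, 7 among genes above 0 in both libraries and 3 at 1 FPKM or more in both. The 12 members lower became 6 after rescaling to the median ratio, 2 with the same sum, 7 with the same sum without the 50 highest genes of each library and 6 at 4-fold. The median log2 ratio of the members, 0.73, was 0.51 with a pseudocount of 1, 1.52, 2.59 and 1.30 under these rescalings in the same order, and negative among genes above 0 in both (-0.28) and at 1 FPKM or more in both (-0.90). Over all genes the shares moved too, from 39.9% higher and 29.9% lower to 17.4% and 22.4% with a pseudocount of 1, where 17 members were higher and 10 lower, 49.3% and 21.3% after rescaling to the median ratio, 63.7% and 13.0% with the same sum, 46.3% and 23.5% with the same sum without the highest genes, 26.1% and 17.3% at 4-fold, 17.5% and 43.8% above 0 in both and 11.5% and 44.0% at 1 FPKM or more in both. With a pseudocount of 0.01 the shares over all genes were 47.4% and 31.1%, while the counts of members stayed at 21 and 12. The other replication genes, 18 rows higher and 12 lower, gave 7 lower after rescaling to the median ratio, 30 higher and 0 lower with the same sum, 7 lower with the same sum without the highest genes, 8 higher above 0 in both, 3 higher at 1 FPKM or more in both and 3 lower at 4-fold. The same sum turned the log2 ratios of GMNN (0.49), MCM10 (0.81), PRIM1 (0.58), RPA2 (0.12), RRM1 (0.67) and UHRF1 (0.58). Filters, thresholds and rescalings set these changes by their own construction. Listings at 0 with IgG limit what can be said of 14 members, since their ratio is set by the pseudocount. The log2 ratios of MCM3, E2F1 and RFC2, low with IgG, also depended on it, at 2.33, 2.12 and 3.36 with a pseudocount of 1. The unknown depth leaves counting error unquantified.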
